A study of Rattus norvegicus with 12 samples.

Results

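The calmodulin-dependent kinases and the calmodulin-binding transcription activators (Camta factors) were followed in cultured rat cerebellar granule neurons. The 10 genes were chosen by name: the upstream kinases Camkk1 and Camkk2, the effector kinases Camk1 and Camk4, the Camk2 subunits Camk2a, Camk2b, Camk2d and Camk2g, and the transcription factors Camta1 and Camta2. They are represented by 21 of the 31099 probe sets on the array, and 16 of these, for 9 of the 10 genes, passed the filter on low values described below.

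Total RNA was measured on 12 Affymetrix rat arrays in 4 groups of 3: neurons in low potassium at 3 h, neurons with GW5074 at 3 h, and the same conditions at 6 h. Per the labels, each group holds an array of letter A, B and C. GW5074 is a chemical compound, per the labels. Whether potassium was also lowered in the GW5074 cultures is left unstated in the labels, and no group in raised potassium was analysed here. The sources used here give no rat strain, animal age, dose or culture age. They also do not state that the letters are separate cultures, so the spread behind each p-value could be purely technical. The title of the GW5074 6 h A array carries another suffix than the other 11 titles, and it was analysed with its group.

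Calcium that enters a depolarised neuron binds calmodulin, and calcium-loaded calmodulin switches on these kinases. Camkk1 and Camkk2 phosphorylate and so activate Camk1 and Camk4, whereas Camk2 subunits assemble into large holoenzymes that phosphorylate themselves. Granule neurons in culture are classically kept alive by raised potassium, which depolarises them, and lowering potassium withdraws that calcium signal. Camta1 and Camta2 bind calmodulin through IQ motifs and DNA through a CG-1 domain.

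Values are deposited intensities, linear and scaled by the authors to a common trimmed mean on each array, and are given as mean ± SD over 3 arrays. Tests used log2(quantile-normalised intensity + 16), and a difference is called when limma's Benjamini-Hochberg adjusted p over all 18625 probe sets tested is under 0.05. The main fit has 4 group means, and a paired fit adds a replicate block of letter within time. Arrays of the same letter and time deviated together, so the paired value is given where it changes a call. Levels of different probe sets are not compared, because probes differ in brightness. Precision is limited by the number of arrays.

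The labelled cell type was checked against its markers, each read from its brightest probe set only. All 11 granule neuron markers on the array passed the filter, as did 8 of 9 astrocyte, 5 of 7 oligodendrocyte lineage, 5 of 9 microglia, 3 of 8 vessel and fibroblast, and 7 of 7 Purkinje and GABAergic neuron markers. Below the filter were Slc1a2 (astrocyte), Olig2 and Cspg4 (oligodendrocyte lineage), Aif1, Itgam, Cx3cr1 and Ptprc (microglia), and Pecam1, Cldn5, Kdr, Dcn and Lum (vessel and fibroblast). Markers of other cells were bright in places: over the 12 arrays the means were 1863 for Mbp, a myelin protein of oligodendrocytes, 1125 for Gfap, the astrocyte filament protein, and 544 for Gad1, which makes GABA. The summed intensity of the granule neuron list was 7652 to 9829 in low potassium and 7779 to 8868 with GW5074 at 3 h, and 12309 to 13612 and 12924 to 15151 at 6 h. That of the 9 astrocyte markers was 2303 to 3094 and 2225 to 2640 at 3 h, and 3593 to 5950 and 4038 to 4620 at 6 h. Such a sum follows its brightest markers, here Gfap and Aldoc (mean 777). That of the oligodendrocyte lineage list was 2368 to 3039 and 2045 to 2704 at 3 h, and 1832 to 2062 and 1426 to 2183 at 6 h. Along the axis from the 3 h to the 6 h means (0 to 1), the 3 h arrays lay at -0.078 to 0.106 and the A and C arrays of 6 h at 1.08 to 1.19, but the B arrays of 6 h at 0.741 (low potassium) and 0.684 (GW5074). In these bulk samples, fewer cells of a type and less RNA per cell cannot be told apart.

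The Camta genes rose between 3 and 6 h. Camta2 (1372040_at) rose in both treatments, and 2 of the 3 Camta1 probe sets rose in both treatments, while the third fell. The promoters of Camta1, Camta2 and Camk2b are shown, as windows of 300 bases around each gene's start (RefSeq, assembly GRCr8, 5′ to 3′ on the gene's strand). These genes were picked from their results in these data, and shared control of them was not tested. Capitals mark CGCG, the core that CG-1 domain proteins bind, read on both strands since it is its own reverse complement. The Camta1 promoter is chr5:167639391-167639690 (minus strand), the Camta2 promoter chr10:55900130-55900429 (minus strand) and the Camk2b promoter chr14:85147895-85148194 (minus strand).
Camta1: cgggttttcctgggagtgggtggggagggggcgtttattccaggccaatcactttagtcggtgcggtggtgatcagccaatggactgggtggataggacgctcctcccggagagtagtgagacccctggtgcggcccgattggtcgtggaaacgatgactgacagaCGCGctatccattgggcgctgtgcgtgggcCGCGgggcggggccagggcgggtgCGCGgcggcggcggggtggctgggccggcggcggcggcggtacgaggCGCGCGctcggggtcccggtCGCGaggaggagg
Camta2: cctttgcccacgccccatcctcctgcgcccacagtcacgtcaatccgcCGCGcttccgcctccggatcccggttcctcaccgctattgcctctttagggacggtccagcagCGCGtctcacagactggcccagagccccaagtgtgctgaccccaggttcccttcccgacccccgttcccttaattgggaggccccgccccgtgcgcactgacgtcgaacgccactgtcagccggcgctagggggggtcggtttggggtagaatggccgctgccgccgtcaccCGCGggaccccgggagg
Camk2b: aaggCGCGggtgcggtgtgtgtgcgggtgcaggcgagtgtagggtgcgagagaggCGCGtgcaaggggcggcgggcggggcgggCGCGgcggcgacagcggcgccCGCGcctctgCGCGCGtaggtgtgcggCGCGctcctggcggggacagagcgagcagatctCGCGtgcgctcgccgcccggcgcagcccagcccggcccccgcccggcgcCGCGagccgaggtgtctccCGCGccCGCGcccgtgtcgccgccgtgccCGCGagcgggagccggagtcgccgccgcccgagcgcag

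CGCG occurs 6 times in the Camta1 window, 3 times in that of Camta2 and 12 times in that of Camk2b, with overlapping matches counted, and 35.74% of 33469 rat promoters of this length hold at least 1. The Camk2b window is 81.33% G and C, against 70.33% for Camta1 and 68.67% for Camta2. Of all promoters, 99.46%, 92.56% and 90.33% hold no more G and C than these windows (Camk2b, Camta1 and Camta2). CGCG is made of these letters only, and its count was not compared with promoters of like composition. The core of the cAMP response element, TGACG, a site for Creb1 family factors, occurs 3 times in Camta2, counting both strands, 2 times in Camk2a and 1 time each in Camk1 and Camkk1, so in 4 of the 9 member windows found, and 21.2% of all promoters hold it. The full element TGACGTCA is not among these letters in any of the 9 member promoters found, and 1.829% of all promoters hold it. CGCG occurs 5 times in the Camkk1 window, 3 times each in those of Camk2d and Camk2g, 1 time each in those of Camk1 and Camk2a, and not in that of Camk4. Camkk2 had no entry. These matches describe letters and show no binding.

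**Figure D1:**
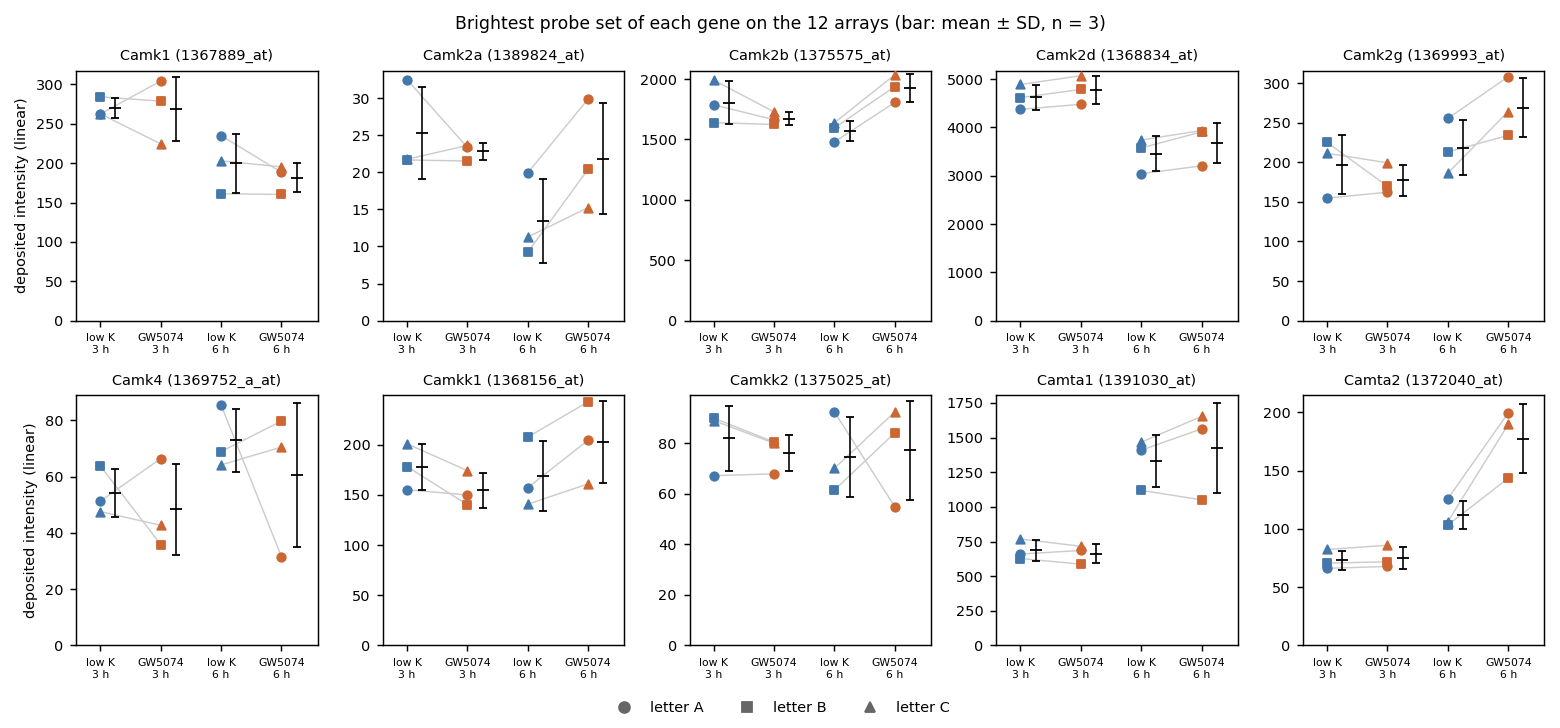
Deposited intensity (linear axis from 0) of the brightest probe set of each of the 10 genes on the 12 arrays. Points are single arrays, with the letter by marker shape, low potassium in blue and GW5074 in orange; grey lines join the arrays of a letter at a time, and bars are mean ± SD (n = 3). Camta1 and Camta2 stand higher at 6 h and Camk1 lower, and the 3 GW5074 arrays of Camta2 at 6 h, from 143.4 to 199.5, lie above the 3 low-potassium arrays.

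Over time in low potassium, 4 of the 16 member probe sets were called higher at 6 h (2 of Camta1, 1 of Camta2, 1 of Camk4) and 2 lower (Camk1 and the third of Camta1), against 11.6% of all probe sets higher and 11% lower. With GW5074, 5 were higher (the same 4 and 1 of Camk2b) and 2 lower (the same 2), against 13.1% and 11.9%. In low potassium all 6 h arrays lay above all 3 h arrays for 5 of the 16 and below them for 3, against 19.8% and 19.4% of all probe sets. The same counts with GW5074 were 6 and 2, against 21% and 18.9%. The median member difference was 0.01 in low potassium and 0.30 with GW5074, and that of all probe sets 0.00 in both. The 2 time comparisons use different arrays, but they share an estimate of the spread, and arrays of the same letter and time deviated together. The same calls in both treatments are therefore not independent of each other. Members with several probe sets are also counted more than 1 time. The Camk4 probe set counted here passed the filter only through its 6 h arrays. In low potassium the 6 calls became 3 without low potassium 3 h A, 2 without low potassium 3 h B, and 3 without low potassium 6 h A or 6 h C. With GW5074 the 7 became 4 without GW5074 3 h A, 3 without GW5074 3 h B and 4 without GW5074 6 h C. Only the larger drops are listed here. Leaving out other arrays also ended single calls in both treatments, as given for each gene below.

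**Figure D2:**
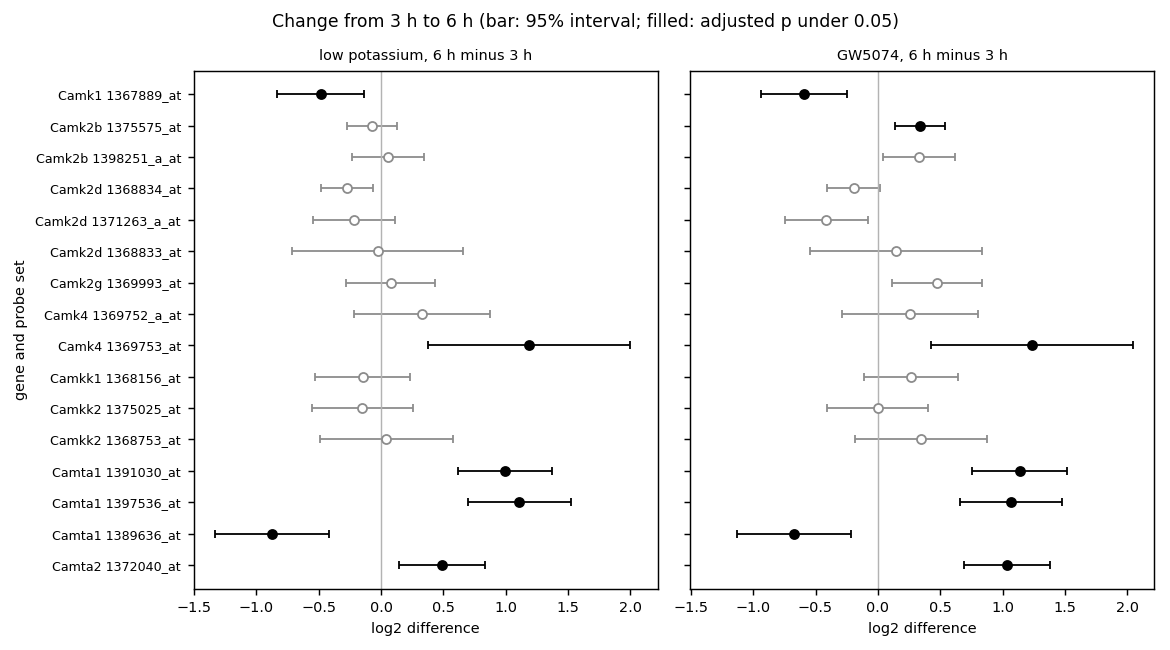
Log2 difference, 6 h minus 3 h, of the 16 member probe sets tested, in low potassium (left) and with GW5074 (right). Points are the fitted differences, bars are 95% intervals, and filled points have an adjusted p under 0.05; 2 Camta1 probe sets, Camta2 and 1 Camk4 probe set lie to the right in both panels, and Camk1 and the third Camta1 probe set to the left.

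Camta1 is a large gene whose product is a neuronal transcription factor. Its brightest probe set, 1391030_at, read 659.8, 627.2 and 768.2 in low potassium at 3 h (letters A, B and C) and 1409, 1119 and 1467 at 6 h. With GW5074 it read 685.1, 586.5 and 715.5 at 3 h and 1563, 1051 and 1652 at 6 h. Every 6 h array lay above every 3 h array, and letter B was the lowest of the 6 h arrays in both treatments. The rise was 1.00 on the log2 scale in low potassium (SE 0.18, 1.99-fold, limma adjusted p 0.00206) and 1.14 with GW5074 (SE 0.18, 2.20-fold, adjusted p 0.000798). Both calls held in every alternative run, with an adjusted p of up to 0.0421 in low potassium and 0.0143 with GW5074. The sizes given here are those of 1391030_at alone, and another Camta1 probe set, described below, fell.

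A second Camta1 probe set, 1397536_at, rose from 648 ± 45.1 to 1379 ± 303 in low potassium (log2 1.11, adjusted p 0.00181) and from 581 ± 43.6 to 1225 ± 292 with GW5074 (log2 1.07, adjusted p 0.00175). Its lowest 6 h arrays were again those of letter B, 1062 and 918.7. These are the letter B arrays that lie between the 3 h and 6 h positions over all genes.

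The third Camta1 probe set, 1389636_at, went the other way. It read 197.2, 245.8 and 137.5 in low potassium at 3 h and 81.5, 115.2 and 110.4 at 6 h, and 196.1, 212.2 and 138.7 with GW5074 at 3 h and 103.4, 120.0 and 107.3 at 6 h. The fall was -0.88 in low potassium (SE 0.21, adjusted p 0.0108) and -0.67 with GW5074 (SE 0.21, adjusted p 0.0337), so the probe sets of this gene disagree in direction; the sources used here do not place them on the gene's transcripts. The first call ended without low potassium 3 h B or low potassium 6 h A (adjusted p 0.0532 to 0.0618), the second without GW5074 3 h A, 3 h B, 6 h A or 6 h C (adjusted p 0.0828 to 0.138) and with no filter (adjusted p 0.0564).

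**Figure D3:**
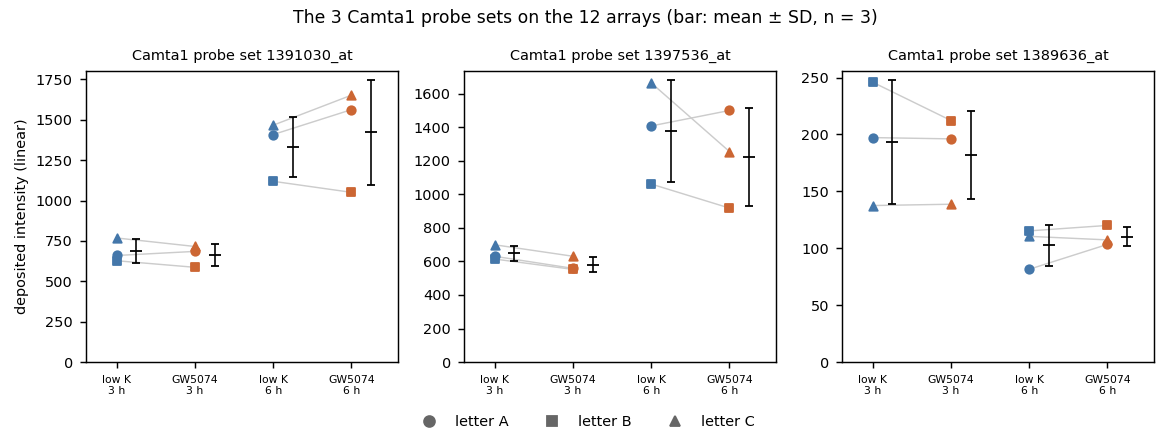
Deposited intensity (linear axis from 0) of the 3 Camta1 probe sets on the 12 arrays. Points are single arrays with the letter by marker shape, and bars are mean ± SD (n = 3); 1391030_at and 1397536_at are higher at 6 h, with letter B lowest, and 1389636_at is lower at 6 h.

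Camta2, the other family member, is a coactivator known from heart muscle and also expressed in brain. It read 66.1, 70.6 and 82.3 in low potassium at 3 h, 67.8, 71.7 and 85.9 with GW5074 at 3 h, 125.9, 103.3 and 106.2 in low potassium at 6 h, and 199.5, 143.4 and 189.5 with GW5074 at 6 h. The groups at 3 h overlapped, the 6 h low-potassium arrays were all above them, and the 6 h GW5074 arrays were all above those. The order of group means was 73.0 ± 8.37, 75.1 ± 9.56, 112 ± 12.3 and 177 ± 29.9, of which the first 2 do not differ beyond their spread.

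With GW5074, Camta2 rose 2.05-fold from 3 to 6 h (log2 1.04, SE 0.16, adjusted p 0.00078), a call that held in every alternative (adjusted p 0.000241 to 0.0068). In low potassium it rose 1.40-fold (log2 0.49, SE 0.16, adjusted p 0.0424). That call ended when any of 7 single arrays was left out, namely low potassium 3 h A or B, GW5074 3 h A or B, low potassium 6 h A or C, or GW5074 6 h A (adjusted p 0.0512 to 0.137). It also ended with a pseudocount of 64 (0.33, adjusted p 0.0512) and with no filter (adjusted p 0.0832).

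Camk1, a cytosolic effector kinase that Camkk enzymes activate, fell. In low potassium it read 262.5, 284.3 and 262.7 at 3 h, then 235.0, 161.3 and 203.0 at 6 h. With GW5074 it read 304.4, 278.8 and 224.4 at 3 h, then 188.5, 160.3 and 195.3 at 6 h. Within each treatment, all 6 h arrays were below all 3 h arrays, as for 19.4% (low potassium) and 18.9% (GW5074) of all probe sets. The difference was -0.48 in low potassium (SE 0.16, adjusted p 0.0447) and -0.59 with GW5074 (SE 0.16, adjusted p 0.0171).

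The low-potassium call of Camk1 ended without low potassium 3 h A, B or C, GW5074 3 h B, low potassium 6 h B or C, or GW5074 6 h A (adjusted p 0.0584 to 0.138), with the deposited scaling (adjusted p 0.071), with no trend (adjusted p 0.0511) and with no filter (adjusted p 0.0657). The GW5074 call of Camk1 ended without GW5074 3 h A or 3 h B (adjusted p 0.0662 to 0.074). Leaving out both 6 h letter B arrays gave -0.35 in low potassium (adjusted p 0.111).

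Camk4, a mainly nuclear kinase that phosphorylates Creb1, is measured by 2 probe sets near the low end of those tested. The dimmer, 1369753_at, read 25.2, 39.1 and 16.9 in low potassium at 3 h and 78.7, 80.6 and 78.8 at 6 h, and 37.6, 23.9 and 1.61 with GW5074 at 3 h and 48.9, 41.6 and 115 at 6 h. It rose by 1.18 in low potassium (SE 0.38, adjusted p 0.0373) and 1.24 with GW5074 (SE 0.38, adjusted p 0.0281). Its 3 h group means, 27.1 in low potassium and 21.0 with GW5074, lay below the filter of 28.0. It was therefore tested only because of its 6 h arrays, and its rise is not independent of the filter. The brighter, 1369752_a_at, differed by 0.33 (95% interval -0.21 to 0.88, adjusted p 0.372) and 0.26 (-0.28 to 0.81, adjusted p 0.489), so the Camk4 rise was called on 1 of its 2 probe sets. The low-potassium call of 1369753_at ended when any of the 6 low-potassium arrays was left out (adjusted p 0.0557 to 0.109), when both 6 h letter B arrays were (0.0532), with a pseudocount of 4 (0.0851) and with no filter (0.0637). The GW5074 call ended without GW5074 3 h B or C, or 6 h A or C (adjusted p 0.0545 to 0.131); without GW5074 3 h C its difference was 0.77.

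Among the Camk2 subunits, Camk2b, the neuronal subunit that binds actin, was called over time with GW5074. Its brightest probe set, 1375575_at, read 1786, 1639 and 1991 in low potassium at 3 h, 1663, 1624 and 1728 with GW5074 at 3 h, 1480, 1596 and 1638 in low potassium at 6 h, and 1806, 1937 and 2035 with GW5074 at 6 h. With GW5074 the 6 h arrays were all above the 3 h arrays, and in low potassium the 2 times overlapped. The difference was 0.34 with GW5074 (SE 0.09, adjusted p 0.0188) and -0.07 in low potassium (95% interval -0.27 to 0.13, adjusted p 0.615). The GW5074 call ended with the deposited scaling (0.20, adjusted p 0.151), with no trend (adjusted p 0.0627) and without GW5074 3 h A, 3 h B or 6 h C (adjusted p 0.0655 to 0.0765). The second Camk2b probe set, 1398251_a_at, differed by 0.33 (adjusted p 0.0891) and 0.06 (adjusted p 0.79).

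Camk2d, a subunit expressed in many tissues, was not called. Its brightest probe set, 1368834_at, stood at 4628 ± 258 and 4779 ± 296 at 3 h and 3453 ± 364 and 3684 ± 415 at 6 h (low potassium, then GW5074). The fitted differences were -0.27 (adjusted p 0.058) and -0.19 (adjusted p 0.162); with the deposited scaling they were -0.42 (adjusted p 0.011) and -0.38 (adjusted p 0.0174), so this probe set passes or misses by the scaling. It also passed with a letter block over all arrays (adjusted p 0.00612 and 0.0311) and, in low potassium, with the 60th percentile filter (adjusted p 0.0469) or without GW5074 6 h A (adjusted p 0.0473). The other 2 Camk2d probe sets ranged from -0.41 to 0.15 over both treatments, with no call.

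Camk2g, a subunit that can carry calmodulin to the nucleus, read 197 ± 37.3 and 177 ± 19.7 at 3 h and 218 ± 34.8 and 269 ± 37.3 at 6 h (1369993_at). With GW5074 the difference was 0.47 (95% interval 0.11 to 0.83, adjusted p 0.0534), and it passed with the deposited scaling (0.56, adjusted p 0.028), with the 60th percentile filter (adjusted p 0.0403), without low potassium 3 h A (adjusted p 0.0413), without GW5074 6 h B (0.56, adjusted p 0.0354) and without both 6 h letter B arrays (0.56, adjusted p 0.0346). Its second probe set, 1381936_at, had a 12-array mean of 9.06 and was not tested. Camk2a, the main subunit of forebrain excitatory neurons, had 4 probe sets with 12-array means of 20.9, 9.37, 6.20 and 3.75, all below the filter of 28.0, so no change can be read for it.

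The upstream kinases did not pass over time. Camkk1 (1368156_at) stood at 178 ± 22.9 and 155 ± 17.5 at 3 h and at 169 ± 34.9 and 203 ± 40.9 at 6 h, a difference of -0.15 in low potassium (95% interval -0.53 to 0.23) and 0.27 with GW5074 (95% interval -0.11 to 0.65). Camkk2, which also phosphorylates the energy-sensing kinase AMPK, stood between 74.7 and 82.1 in all 4 group means of 1375025_at, with differences of -0.15 (-0.56 to 0.26) and 0.00 (-0.41 to 0.41). Its dimmer probe set, 1368753_at, differed by 0.04 (-0.49 to 0.57) and 0.35 (-0.19 to 0.88), with no call. The mean of 1368753_at with GW5074 at 3 h, 27.1, lay below the filter of 28.0. In low potassium the intervals of Camkk1 and of Camkk2 1375025_at both include the -0.48 of Camk1, and with GW5074 neither includes its -0.59. The interval of Camk1 itself with GW5074, -0.94 to -0.25, overlaps that of Camkk2 1375025_at but not that of Camkk1. Differences between genes were not tested.

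GW5074 against low potassium at 3 h gave no member call, without or with the replicate block. Over all probe sets, 0% were called without the block (300 at an unadjusted p under 0.05, where 931 are expected by chance) and 0.0161% with it. Of the 16 member probe sets, 0 had an unadjusted p under 0.05 in either fit, and their median difference was -0.09 against 0.00 for all probe sets. Lower with GW5074 in 3 of 3 letters were Camkk1 (mean -0.18, paired 95% interval -0.43 to 0.06), Camk2b 1375575_at (-0.10, -0.23 to 0.03) and the Camta1 probe sets 1397536_at (-0.15, -0.34 to 0.05) and 1389636_at (-0.08, -0.35 to 0.18). All of these intervals include 0.

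GW5074 against low potassium at 6 h gave higher Camta2 and Camk2b in the paired fit and no call without the block. Without the block 0% of all probe sets were called (895 at an unadjusted p under 0.05), and 3 member probe sets had an unadjusted p under 0.05. With the block 0.95% of all probe sets were called higher and 1.87% in either direction, and 2 of 16 members were called, both higher. For both, every GW5074 array at 6 h lay above every low-potassium array, as for 5.04% of all probe sets. The median member difference was 0.10, and that of all probe sets 0.00.

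Camta2 was higher with GW5074 at 6 h. The log2 difference was 0.58, with a paired 95% interval of 0.30 to 0.86 (paired adjusted p 0.0342, adjusted p 0.757 without the block). It was higher in 3 of 3 letters, by 0.60, 0.42 and 0.73. At 3 h the same difference was 0.03 (paired 95% interval -0.25 to 0.31). The 2 effects differed by 0.55, which did not pass (paired adjusted p 0.212).

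Camk2b (1375575_at) was 1.24-fold higher, with a log2 difference of 0.31 and a paired 95% interval of 0.18 to 0.44 (paired adjusted p 0.0186, adjusted p 0.919 without the block). The 3 letters gave 0.30, 0.32 and 0.30, against a lower reading in each at 3 h (-0.12, -0.03 and -0.16). The effect at 6 h minus that at 3 h was 0.41 (paired adjusted p 0.0571). Its second probe set, 1398251_a_at, gave 0.31 at 6 h, higher in 3 of 3 letters (0.59, 0.20 and 0.14), and did not pass (paired adjusted p 0.0716). At 3 h that probe set was higher in 2 of 3 letters (-0.06, 0.06 and 0.12, mean 0.04), unlike 1375575_at.

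Both 6 h calls ended when any letter was left out. Leaving out pair A, B or C at 6 h ended that of Camk2b (paired adjusted p 0.0902, 0.0641 and 0.0674) and that of Camta2 (0.222, 0.0607 and 0.164), while the Camta2 difference stayed between 0.50 and 0.72 over all settings with an array or pair left out. Of 13 paired settings, Camk2b passed in 9 and Camta2 in 8. The passes include the paired fit itself and the runs without a 3 h pair, which keep every 6 h array. A letter block over all arrays is not among the 13 and called neither (limma adjusted p 0.341 for Camk2b and 0.37 for Camta2).

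**Figure D4:**
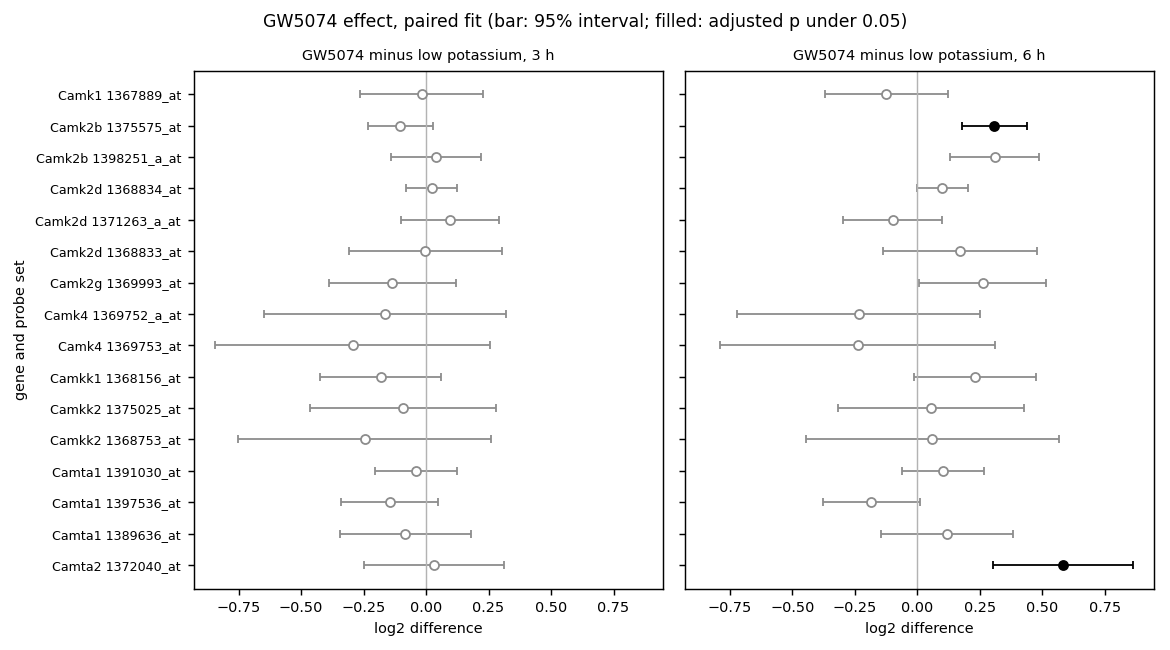
Log2 difference, GW5074 minus low potassium, of the 16 member probe sets tested, at 3 h (left) and 6 h (right). Points are the fitted differences, bars are 95% intervals of the paired fit, and filled points have a paired adjusted p under 0.05; at 6 h Camta2 (0.58) and Camk2b 1375575_at (0.31) are filled, and at 3 h none is.

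The other members were not called for GW5074 at 6 h. Camkk1 was higher in 3 of 3 letters (0.34, 0.18 and 0.17), with a mean of 0.23 and a paired 95% interval of -0.01 to 0.47 (paired adjusted p 0.338). Camk2g was higher in 3 of 3 letters (0.22, 0.10 and 0.46; mean 0.26, paired 95% interval 0.01 to 0.52, paired adjusted p 0.29). The brightest Camk2d probe set differed by 0.10 (0.00 to 0.20), Camk1 by -0.13 (-0.37 to 0.12) and the brighter Camk4 probe set by -0.24 (-0.72 to 0.25). The 3 Camta1 probe sets differed by 0.10, -0.18 and 0.12, so the rise of Camta1 over time went with no called GW5074 difference. No member's GW5074 effect differed between the times by the test of that difference, where 0% of all probe sets were called without the block (645 at an unadjusted p under 0.05) and 0.193% with it.

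Some measures of cell type and RNA quality differed in these comparisons, and their part in the results was not tested. Over time, 5 of 11 granule neuron markers rose and 1 fell in low potassium, and 10 of 11 rose with GW5074. In each treatment 2 of 8 astrocyte markers rose, namely Gfap by 1.87 and Aldoc by 1.10 in low potassium. The median astrocyte marker difference was 0.23 in low potassium and -0.002 with GW5074. Of all genes tested, 11.5% were called higher and 14.1% lower in low potassium, and 13.5% and 14.1% with GW5074. Of 7 Purkinje and GABAergic neuron markers, 1 fell in low potassium and 2 with GW5074, and the oligodendrocyte, microglia, and vessel and fibroblast lists had no call. For GW5074 at 6 h, 2 of 11 granule neuron markers were higher in the paired fit, Slc17a7 by 0.42 and Kcnd2 by 0.48. None of the other lists had a call, and 0.95% of all probe sets were called higher in that fit. The log2 difference between the 3′ and 5′ probe sets of beta-actin, a measure of RNA integrity, was higher with GW5074 in 3 of 3 letters at each time. At 3 h the mean of 0.11 came mainly from letter C (0.02, 0.02 and 0.30 for A, B and C). At 6 h the mean was also 0.11 (0.11, 0.18 and 0.04). The GW5074 3 h C array had the highest value of all arrays, 1.36. The same difference for Gapdh was higher with GW5074 in 2 of 3 letters at each time.

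The other genes of the calcium and calmodulin pathway were taken from 5 lists. Each was read from its brightest tested probe set only, and any other probe set of the same gene was not examined. Over all genes tested, 11.5% were called higher and 14.1% lower over time in low potassium, and 13.5% and 14.1% with GW5074. Of 6 calmodulin genes and calmodulin-binding buffers tested, 2 rose in each treatment and 4 did not pass: Camk2n1, an inhibitor of Camk2, by 0.84 and 0.96, and Calm2, a calmodulin gene, by 0.24 and 0.27. With the deposited scaling Calm2 lost both calls (0.16 and 0.05).

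Of 11 other kinases of the CaM kinase group, 3 fell in low potassium and 5 with GW5074, and 0 rose. Dapk3, a death-associated protein kinase, fell by 1.14 and 0.99, Dclk2, a doublecortin-like kinase, by 0.70 and 0.50, and Phkg2, a phosphorylase kinase subunit, by 0.47 and 0.40, while Cask, a synaptic scaffold, fell by 0.77 and Stk17b, an apoptosis-related kinase, by 1.09 with GW5074. Stk17b was also the 1 pathway gene called for GW5074, lower at 6 h by 0.62 in the paired fit (paired adjusted p 0.0225, adjusted p 0.983 without the block).

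Of 9 calcineurin genes, which encode the calcium-dependent phosphatase and its regulators, 2 fell in low potassium (Ppp3r1, the regulatory subunit, by 0.52, and the inhibitor Rcan2 by 0.66). With GW5074, Rcan2 fell by 0.94, and Ppp3ca, the catalytic subunit, and Cabin1, a calcineurin-binding inhibitor, rose by 0.55 and 0.58; the Ppp3ca call ended with the deposited scaling (adjusted p 0.0865). Of 4 CaM kinase phosphatases, Ppp1cb, a catalytic subunit of protein phosphatase 1, fell by 0.56 and 0.70.

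Of 23 substrates and effectors, 5 rose and 4 fell in low potassium, and 7 rose and 2 fell with GW5074. The risers in both were Creb1, the transcription factor that Camk4 phosphorylates (1.31 and 1.02), its coactivators Crebbp (0.60 and 1.01) and Ep300 (0.90 and 1.20), and Crtc1, a Creb1 coactivator (0.70 and 0.71). Crtc2 rose by 0.65 in low potassium, and Atf1 by 0.38, Syn1, a synaptic vesicle protein, by 0.70 and Stmn1, a microtubule regulator, by 0.43 with GW5074, the last not with the deposited scaling (adjusted p 0.0988). The fallers in both were Mef2c, a survival transcription factor (-1.26 and -1.29), and Hdac5, a repressor that CaM kinases move out of the nucleus (-0.90 and -0.91). Mef2d, a relative of Mef2c, and Sik1, a kinase of the Crtc coactivators, fell by 0.64 and 1.05 in low potassium. No pathway gene was called for GW5074 without the block.

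Genes whose 12 log2 values, centred on their mean, lay nearest to those of the 3 members with the widest span of group means were found among 10251 candidates. For Camta1 (span 1.14) they were Rsbn1, Camsap2 and Arhgef25, at root mean square differences of 0.09, 0.10 and 0.12 on the log2 scale, where the median over all candidates was 0.62. For Camta2 (span 1.07) they were Osbpl7, Tmem201 and Rap1gap, at 0.08, 0.11 and 0.13 against a median of 0.51; Osbpl7 was higher with GW5074 at 6 h by 0.45 and rose over time by 0.51 and 1.04. For Camk1 (span 0.61) they were Ubxn4, Nfe2l1 and Atg4b, at 0.09, 0.10 and 0.10 against a median of 0.40. Likeness is over the same 12 arrays, so the differences of Osbpl7 resemble those of Camta2 because of how it was found and add no support.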

How the data were processed

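RNA of cultured granule neurons was measured on 12 arrays. Per the labels, 3 arrays belong to each of 4 groups. The deposited values are 1 linear intensity per probe set and array; from the values, the authors scaled every array to a mean of 150.05 to 150.06 after trimming 2% at each end. For the summarisation method and software, nothing is stated in the sources used here. Gene symbols came from the platform's probe table, updated through Entrez identifiers to a rat gene table (GRCr8).

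Intensities of 31042 non-control probe sets were quantile-normalised, 16 was added and log2 was taken. Probe sets with a 12-array mean at or above the 40th percentile (28.0) were kept, which left 18625 for 10260 genes. limma 3.58.1 in R 4.3.3 (lmFit, eBayes with trend, two-sided) fitted 4 group means, with 8 residual degrees of freedom before moderation, and Benjamini-Hochberg adjustment over all probe sets kept; the paired fit, with letter within time as a block, left 4. Fold changes are on the log2(value + 16) scale and understate those of dim probe sets. No 2 arrays were identical. The fit was tested on simulated data.

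The pairing rests on the letters in the labels. After removal of group means, the deviations of same-letter arrays of both treatments correlated by 0.43, 0.21 and 0.54 at 3 h and by 0.29, 0.65 and 0.57 at 6 h, each the best match.

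All 10 members are named. Pathway genes are named where called in any comparison, and the 3 nearest genes for the 3 members of widest span. The members, lists and motifs were chosen with earlier results of these data known. Alternatives covered the scaling, the pseudocount (4 and 64), the filter (none and the 60th percentile), the trend, the blocks, the mean of a gene's probe sets and leaving out each array; those added after seeing the data were leaving out both 6 h letter B arrays and the paired fit with each other setting. Promoters came from RefSeq (GRCr8), with Python 3.11.15 and matplotlib 3.10.9 for the figures.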

Additional observations from a re-analysis of the deposited data

Results flagged for a closer look

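The GW5074 difference of Camk2b (1375575_at) was below 0 in 3 of 3 letters at 3 h (-0.12, -0.03 and -0.16). At 6 h it was above 0 in 3 of 3 (0.30, 0.32 and 0.30), so its sign changed between the times. The 3 h mean was -0.10 with a paired interval of -0.23 to 0.03, which includes 0, so no lower level at 3 h was shown. The 6 h effect minus the 3 h effect was 0.41 (limma paired adjusted p 0.0571, 0.9998 without the block). The second Camk2b probe set, 1398251_a_at, did not show this change of sign: at 3 h it was higher in 2 of 3 letters (-0.06, 0.06 and 0.12), and its effects differed by 0.27 (limma paired adjusted p 0.332). Camkk1 (1368156_at) also changed sign, with -0.03, -0.30 and -0.21 at 3 h and 0.34, 0.18 and 0.17 at 6 h. Its paired intervals, -0.43 to 0.06 at 3 h and -0.01 to 0.47 at 6 h, both include 0. The difference between its effects was 0.41 (limma paired adjusted p 0.28, 0.9998 without the block). None of these differences between the effects passed, and no cause was tested.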

How the results depend on the processing

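Of the member values recomputed under the alternatives, 1266 kept their direction and side of the threshold, 47 no longer passed, 30 newly passed and 35 changed sign. Without a replicate block, 0 members were called for GW5074 at 6 h; with the replicate block within time 2 were, and 2 also with a random block and with the paired fit under the deposited scaling, a pseudocount of 64 or 4, or the 60th percentile filter, but 1 with no filter and 0 with no trend. A letter block over all arrays called neither Camk2b (adjusted p 0.341) nor Camta2 (0.37). For time in low potassium, 3 rather than 6 were called with no filter, where 31042 probe sets were tested. Leaving out single arrays or pairs gave 0 to 2 calls for GW5074 at 6 h, 2 to 6 for time in low potassium and 3 to 8 with GW5074. Camkk2 over time with GW5074 was 0.00299 with a pseudocount of 64 and 0.17 as the mean of its probe sets, against -0.00235 in the main setting, and -0.13 to 0.17 with arrays left out. Values that changed sign with an array or pair left out were, at 3 h for GW5074, Camk1 (-0.12 to 0.11), Camk2d (-0.0400 to 0.0675), Camk4 (-0.42 to 0.0566), Camta1 (-0.12 to 0.0463) and Camta2 (-0.0238 to 0.12); at 6 h, Camk4 (-0.44 to 0.14), Camkk2 (-0.10 to 0.34) and Camta1 (-0.0272 to 0.32); for the difference between the effects, Camk1 (-0.24 to 0.00900), Camk2d (-0.00756 to 0.17), Camk4 (-0.29 to 0.30) and Camkk2 (-0.00720 to 0.43); and over time in low potassium, Camk2b (-0.13 to 0.00467) and Camk2g (-0.0738 to 0.18). None of these was called. The cause of these changes was not tested. Dim probe sets (Camk4, Camkk2, and Camk2a below the filter) limit what can be read for those genes.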
